A study of Mus musculus with 9 samples.

Results

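The unfolded protein response and the integrated stress response were examined through 39 genes in primary murine lung endothelial cells (MLEC). These genes were chosen by name for their known roles, with earlier results of these data known. Each matched a single locus of its own among 37104 loci measured by RNA-seq. They comprise 16 endoplasmic reticulum (ER) chaperones and folding enzymes, 8 genes of ER-associated degradation, 7 stress sensors, transcription factors and a phosphatase subunit, and 8 targets of the transcription factor ATF4. The values were Cufflinks estimates in FPKM, fragment counts scaled to transcript length and library size. The files hold no read counts, so the depth behind each library and value could not be read from them.

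The study asked what loss of the JNK protein kinases does to gene expression in endothelial cells. The MLEC came from C57BL/6J mice of 10 to 12 weeks, and each of 9 libraries came from a separate preparation that pooled lungs of 4 mice, selected for the endothelial surface protein ICAM2 and grown in culture. The libraries form 3 groups of 3. ECtrl cells were Cdh5-Cre+ with the alleles Jnk1+/+, Jnk2+/+ and Jnk3-/-, so they carried Cre but no floxed gene. EfCtrl cells were Cdh5-Cre- with Jnk1LoxP/LoxP, Jnk2LoxP/LoxP and Jnk3-/-, so they carried the floxed genes but no Cre. E3KO cells were Cdh5-Cre+ with Jnk1LoxP/LoxP, Jnk2LoxP/LoxP and Jnk3-/-, which places loss of JNK1 and JNK2 on the Jnk3-/- background that all 3 groups share. Cdh5-Cre drives deletion from the promoter of the endothelial cadherin, so the deletion is meant for endothelial cells of the culture.

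Unfolded protein in the ER is sensed by IRE1 (gene Ern1), PERK (Eif2ak3) and ATF6 (Atf6). IRE1 splices the Xbp1 mRNA so that it encodes an active transcription factor, ATF6 is cut to release a factor of its own, and both raise the production of chaperones and of the machinery that removes misfolded proteins. PERK phosphorylates the translation factor eIF2, which lowers protein synthesis in general and favours the translation of ATF4. The kinases GCN2, PKR and HRI act on eIF2 as well, and this shared route is the integrated stress response. IRE1 can also recruit TRAF2 and the kinase ASK1, through which JNK becomes phosphorylated. RNA-seq gives the amount of mRNA, so neither Xbp1 splicing nor the phosphorylation of any kinase was measured here.

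Some of the genes hold short promoter motifs known from these responses, and a few are shown here because the ER stress response element was found in chaperones and not in ATF4 targets. This element (ERSE, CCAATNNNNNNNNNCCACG) pairs a CCAAT box with a CCACG box 9 bases further on. Both strands were searched from 250 bases before to 50 bases after each RefSeq start (GRCm38.p6, the assembly of mm10), for the 34 of 39 genes that matched by symbol or synonym, which left out Manf, Hyou1, Derl1, Atf6 and Ppp1r15b. An exact ERSE was present in 8 of 14 chaperone and folding genes (57.1%) and in 2 of 7 degradation genes (28.6%), but in 0 of 5 sensors and factors and 0 of 8 ATF4 targets. Over all 27025 genes with such a window, 37 held one (0.137%). In the following sequences, written on the strand of the gene, capitals mark the ERSE, which reads in reverse complement in the promoter of Calr.
Hspa5 (chr2:34772013-34772055, plus strand): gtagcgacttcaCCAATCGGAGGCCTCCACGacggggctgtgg
Pdia6 (chr12:17266479-17266521, plus strand): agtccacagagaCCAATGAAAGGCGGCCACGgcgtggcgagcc
Canx (chr11:50325788-50325830, minus strand): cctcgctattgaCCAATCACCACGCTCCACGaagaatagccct
Calr (chr8:84847063-84847105, minus strand): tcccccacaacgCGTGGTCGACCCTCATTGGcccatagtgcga
Syvn1 (chr19:6046520-6046562, plus strand): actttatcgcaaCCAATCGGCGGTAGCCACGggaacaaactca

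The ERSE of Hspa5 begins 65 bases before the start and that of Pdia6 begins 98 bases before it. Hsp90b1 held 2 such elements, and Dnajc3, Creld2, Ero1lb and Derl3 held 1 each. The related ERSE-II (ATTGGNCCACG), which shares the CCACG box, was found in Herpud1 and, past the start, in Dnajb11, neither of which holds an ERSE, and in 12 of all genes (0.0444%). The C/EBP-ATF element (TGATGNAA), the kind of site that ATF4 binds as a dimer with a C/EBP protein, was present in 3 of 8 ATF4 targets (37.5%), namely Asns, Chac1 and, past the start, Trib3, and in Herpud1, where it lies apart from the ERSE-II. It was found in 4.51% of all genes. The next sequences carry ERSE-II or the C/EBP-ATF element in capitals, the latter in reverse complement in Chac1.
Herpud1, ERSE-II (chr8:94386365-94386399, plus strand): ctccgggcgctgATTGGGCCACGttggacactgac
Asns, C/EBP-ATF element (chr6:7693213-7693244, minus strand): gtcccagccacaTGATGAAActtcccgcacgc
Chac1, C/EBP-ATF element (chr2:119351037-119351068, plus strand): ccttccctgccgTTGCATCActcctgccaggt

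A match to these letters is a description of the sequence and not a measured binding site.

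The floxed genes were inspected first as a check of the labels. Mapk8, which encodes JNK1, was at 17.01, 15.0 and 17.9 FPKM in ECtrl, at 16.7, 14.0 and 15.1 FPKM in EfCtrl, and at 20.7, 8.77 and 4.65 FPKM in E3KO. The library labelled E3KO replicate 1 was thus the highest of all 9 for Mapk8, against its label, while the other E3KO libraries lay below every control. Mapk9, which encodes JNK2, was at 44.1, 50.9 and 47.9 FPKM in ECtrl, 45.5, 42.7 and 47.9 FPKM in EfCtrl, and 27.6, 35.1 and 20.7 FPKM in E3KO, without overlap. The log2 difference of Mapk9 from the mean of the controls was -0.75 (SE 0.15, limma adjusted p = 0.0359), a call that was lost when any library except E3KO replicate 2 was left out (limma adjusted p = 0.0565 to 0.0983). It was also lost with all libraries after rescaling by the median ratio (limma adjusted p = 0.0526) and with no expression minimum (limma adjusted p = 0.157). That of Mapk8 was -0.67 (SE 0.35, limma adjusted p = 0.285) with all libraries and -1.18 without the library labelled E3KO replicate 1 (limma adjusted p = 0.0298), but -0.21 without E3KO replicate 3 (limma adjusted p = 0.649). Mapk10, which encodes JNK3, was at or below 0.27 FPKM throughout. FPKM covers whole genes, including exons that Cre leaves in place.

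The same library stood apart in its totals. Its FPKM summed to 9841810, of which 96.4% lay in its 10 highest symbols, while the other 8 libraries summed to between 656089 and 908401. Without the symbols that averaged 5000 FPKM or more, the 9 sums lay between 388537 and 433172. Among the 39 stress response genes, the library labelled E3KO replicate 1 held the highest value of 12 and the lowest value of 11, whereas E3KO replicate 2 and replicate 3 held the highest of 4 and 7 and the lowest of 0 and 4. Results are therefore also given without it.

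**Figure D1:**
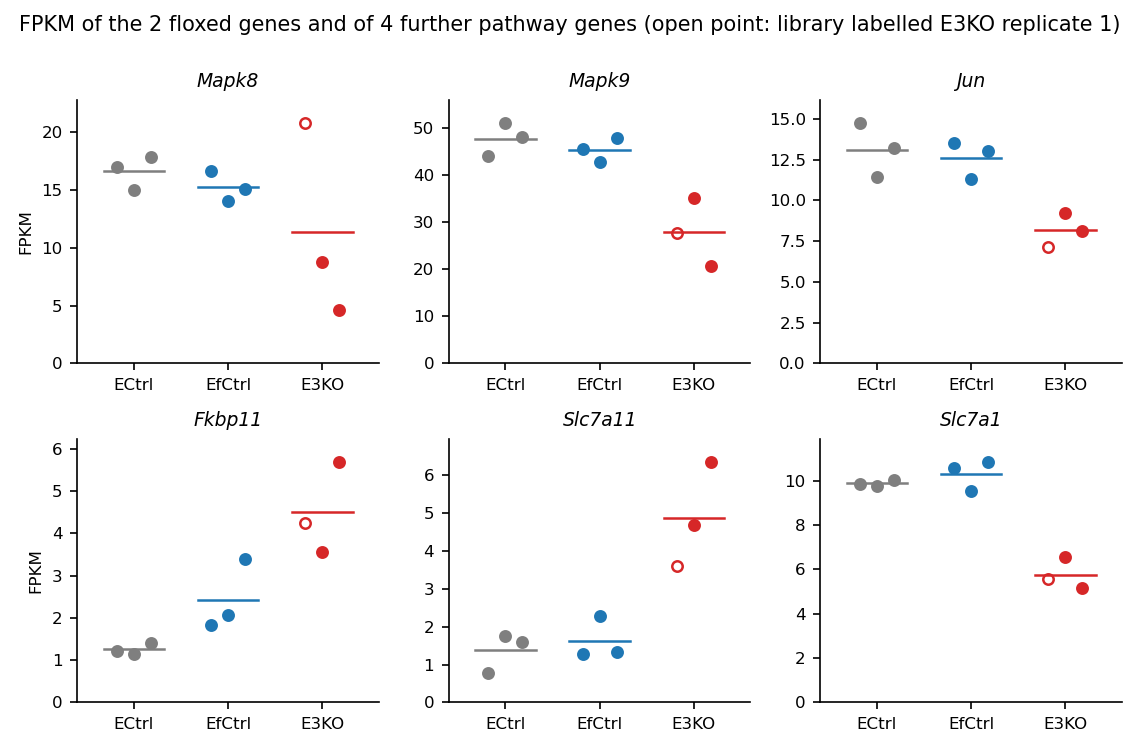
FPKM (vertical axes, from 0) of Mapk8, Mapk9 and 4 further genes of the pathways in the 3 libraries of each group, with the group mean as a line and the library labelled E3KO replicate 1 as an open point. That library is the highest for Mapk8 at 20.7 FPKM, while all E3KO libraries lie apart from the controls for the other 5 genes.

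Endothelial markers were abundant in all groups. Cdh5, the endothelial cadherin, lay between 613 and 943 FPKM and Pecam1 between 643 and 798 FPKM over the 9 libraries, and the 10 endothelial markers summed to between 2950.1 and 3945.2 FPKM. The 7 lymphatic endothelial markers summed to between 2274.9 and 3341.3 FPKM, most of it Lyve1. All 7 had a negative log2 difference of E3KO from the mean of the controls (median -0.58), and 3 were called lower, beside 3.26% of all genes tested. These were Prox1, Reln and Ccl21a, which fell by 0.99, 0.96 and 1.65 on the log2 scale (limma adjusted p = 0.0131, 0.0167 and 0.0381). Ccl21a has near-identical copies that can share its reads. Of the 9 endothelial markers tested, 1 was called lower and 1 higher, beside 3.26% and 1.54% of all genes. Cldn5 fell by 0.92 and Emcn rose by 0.63 on the log2 scale (limma adjusted p = 0.0322 and 0.026). Without the library labelled E3KO replicate 1, Prox1 and Reln were still called (limma adjusted p = 0.0285 and 0.0343), and Ccl21a, Cldn5 and Emcn were not (limma adjusted p = 0.0638, 0.0704 and 0.054). In bulk RNA, fewer cells of a type and less RNA per cell cannot be told apart.

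Markers of other cells summed to less than the endothelial markers in every library and were uneven. Leukocyte markers summed to 73.6, 154 and 133 FPKM in ECtrl, 191, 265 and 159.9 FPKM in EfCtrl, and 197, 294 and 319 FPKM in E3KO, led by Lyz2, and 4 of 8 averaged 2 FPKM or more. Smooth muscle and fibroblast markers summed to 13.3, 48.8 and 37.9 FPKM in ECtrl, 27.9, 68.3 and 82.9 FPKM in EfCtrl, and 12.4, 19.8 and 26.2 FPKM in E3KO, led by Acta2, and 6 of 11 averaged 2 FPKM or more. Markers of B and plasma cells, listed since plasma cells hold a large ER, summed to between 2.33 and 7.7 FPKM, led by Sdc1, and Ms4a1 was at 0 in every library. Lung epithelial markers summed to 51.3 FPKM in the library labelled E3KO replicate 1, of which Scgb1a1 made 46.2, and to at most 6.05 FPKM elsewhere. No marker of these 4 lists was called (limma), beside 4.8% of all genes tested. All 4 leukocyte markers tested were higher in E3KO than the mean of the controls (median log2 difference 0.62). All 6 smooth muscle and fibroblast markers tested were lower (median -1.09), as was the 1 B and plasma cell marker tested (-0.59). At an unadjusted p under 0.05 (limma), 2 of 4, 3 of 6 and 1 of 1 passed, and 0 of 2 lung epithelial markers, beside 23.8% of all genes. Against ECtrl and EfCtrl apart, the leukocyte medians were 1.08 and 0.37, with 4 and 3 of 4 higher. The smooth muscle and fibroblast medians were -0.71 and -1.46, with 4 and 6 of 6 lower. EfCtrl minus ECtrl itself had medians of 0.84 for the leukocyte and 0.74 for the smooth muscle and fibroblast markers. The part of these cells in the results below was not tested.

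Each gene was compared by limma on log2(FPKM + 1) with the 3 groups in 1 fit, over the 10605 genes whose group mean reached 2 FPKM in at least 1 group, with Benjamini-Hochberg adjustment over all of them. Of the 39 genes, 37 passed this minimum, all of them in every group. Derl3, at most 0.162 FPKM, and Chac1, between 0.984 and 2.42 FPKM, did not. The comparisons of E3KO with ECtrl and with EfCtrl share the E3KO libraries and are not independent.

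None of the 37 genes was called at an adjusted p under 0.05 in E3KO against the mean of the controls, against ECtrl or against EfCtrl (limma, 0 of 37 each). Over all genes tested, 509 were called against the mean of the controls (4.8%), of which 163 were higher (1.54%) and 346 lower (3.26%). That count was 9 without E3KO replicate 3, the lowest when each library was left out. Against ECtrl 239 genes were called (2.25%) and against EfCtrl 101 (0.952%), but 0 and 1 without E3KO replicate 3. At an unadjusted p under 0.05, 8 of the 37 genes passed against the mean of the controls, a share of 21.6% beside 23.8% of all genes. The same count was 4 of 37 (10.8%) against ECtrl beside 20.1% of all genes, and 8 of 37 (21.6%) against EfCtrl beside 17.7%. The share of the stress response genes was thus below that of all genes against ECtrl and slightly above it against EfCtrl. Between the controls, 0 of 10605 genes were called (0%), 195 passed at an unadjusted p under 0.05 (1.84%), and 0 of the 37 did.

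The differences were small. The 95% interval of the log2 difference lay between -1 and 1 for 35 of 37 genes on the scale of log2(FPKM + 1), which understates the change of low genes, and the exceptions were Trib3 and Phgdh. The median difference over the 37 genes was 0.07 on the log2 scale, with 22 higher and 15 lower, beside a median of -0.08 over all genes tested. It was 0.11 over the 16 chaperone and folding genes, -0.09 over the 7 degradation genes tested, 0.17 over the 7 sensors and factors, and -0.01 over the 7 ATF4 targets tested. Without the library labelled E3KO replicate 1 these medians were 0.18, 0.04, 0.09 and -0.07 in the same order, beside -0.06 over all genes, so that the sign of the degradation genes turned. The chaperone median was 0.07 without E3KO replicate 3. Against ECtrl and EfCtrl apart, with all libraries, the chaperone median was 0.11 and 0.13, and that of the ATF4 targets was 0.004 and -0.10. When each library was rescaled by its median ratio, the median of all genes moved from -0.08 to 0.01 and those of the 4 groups to 0.21, 0.01, 0.26 and 0.08, so that the signs of the degradation genes and of the ATF4 targets turned.

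**Figure D2:**
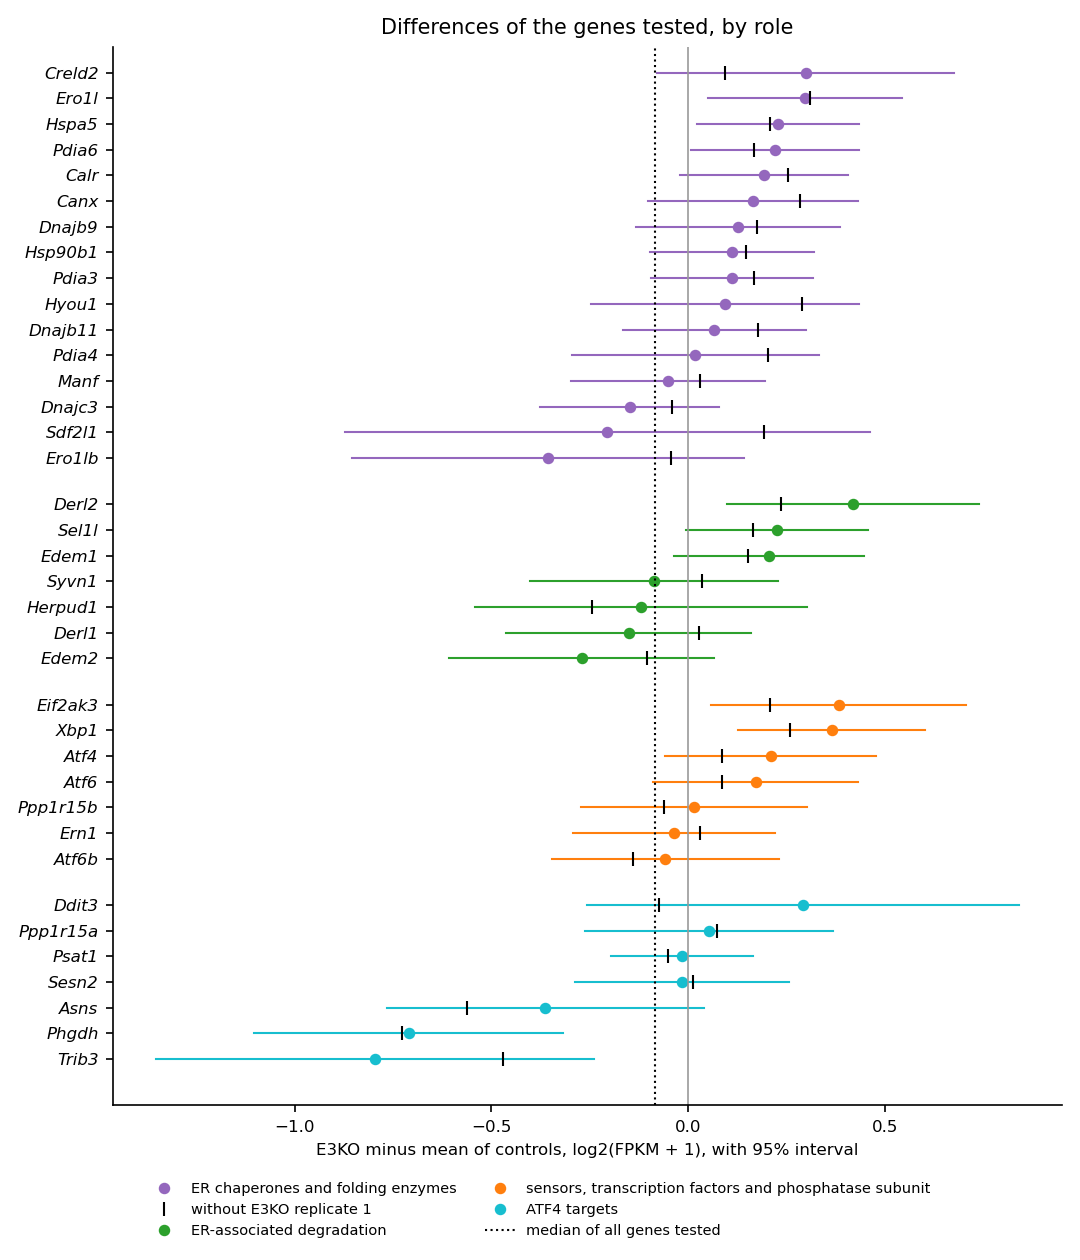
Log2 difference of E3KO from the mean of the controls (horizontal axis, log2(FPKM + 1)) for the 37 genes tested, ordered within 4 role groups, with points for the estimate from 9 libraries, lines for its 95% interval and black ticks for the estimate without the library labelled E3KO replicate 1. The dotted line is the median of all genes tested at -0.08, and Trib3 and Phgdh lie lowest at -0.80 and -0.71.

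The order of the libraries gave a further description. In 6 of 37 genes (16.2%) all E3KO libraries lay above all 6 controls, namely Pdia6, Ero1l, Sel1l, Derl2, Xbp1 and Eif2ak3, beside 5.18% of all genes tested. In 2 of 37 genes (5.41%), Trib3 and Phgdh, all E3KO libraries lay below the controls, beside 11.5% of all genes. Without the library labelled E3KO replicate 1, 12 genes (32.4%) lay above, beside 10.5% of all genes, and 3 (8.11%) below, beside 16.1% of all genes. The 12 added Calr, Canx, Pdia3, Pdia4, Dnajb11 and Hyou1, so that 8 of 16 chaperone and folding genes had both remaining E3KO libraries above the controls, and the 3 added Asns. With rescaled values 11 genes (29.7%) lay above, namely Hspa5, Hsp90b1, Calr, Pdia3 and Atf4 beside the first 6, and the same 2 lay below, beside 8.82% and 7.84% of all genes.

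Several chaperones and folding enzymes, led by Pdia3, Calr, Hsp90b1 and Hspa5, were the most abundant of the 39 genes, while others such as Ero1lb were among the least abundant. Hspa5 (chr2:34771970-34776531 in mm10, the build of the files), which encodes BiP, the chaperone that binds unfolded chains and holds the 3 sensors inactive, was at 301, 264 and 249 FPKM in ECtrl, 246, 250.5 and 258 FPKM in EfCtrl, and 314, 298 and 305 FPKM in E3KO. The E3KO libraries lay close together and above 5 of the 6 controls, with ECtrl replicate 1 between them. The log2 difference was 0.23 from the mean of the controls (SE 0.09, limma adjusted p = 0.174), 0.18 from ECtrl and 0.28 from EfCtrl, or 1.17-fold, on the scale of FPKM + 1, in the first case.

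Pdia3, a disulfide isomerase for glycoproteins and the most abundant of the 39, was at 569, 563 and 510.4 FPKM in ECtrl, 504, 534 and 556 FPKM in EfCtrl, and 538, 615 and 596 FPKM in E3KO. The library labelled E3KO replicate 1 fell within the controls, and the others lay above them. Its log2 difference was 0.11 (SE 0.09, limma adjusted p = 0.475), and 0.17 without that library. The lectin chaperones Calr and Canx, which hold glycoproteins during folding, averaged 473 ± 37.7 and 262 ± 36.0 FPKM in E3KO (SD, n = 3) and 413 ± 23.4 and 233 ± 15.8 FPKM in the controls (SD, n = 6). Hsp90b1, the ER member of the HSP90 family, averaged 306 ± 18.9 FPKM in E3KO and 283 ± 16.0 FPKM in the controls.

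Of the enzymes of disulfide formation, Pdia6, an isomerase, was at 138, 128 and 143 FPKM in ECtrl, 138, 119.8 and 126 FPKM in EfCtrl, and 166, 143 and 154 FPKM in E3KO. Its lowest E3KO library met the highest control to within 1 FPKM, so the separation was narrow, and its log2 difference was 0.22 (SE 0.09, limma adjusted p = 0.2). The Pdia6 locus also spans Atp6v1c2, and those of Pdia3, Manf and Syvn1 span Catsper2, Dcaf1 with Rbm15b, and Mrpl49, whose reads may be counted with them. Ero1l, the oxidase that recharges the isomerases, was at 26.6, 30.6 and 23.3 FPKM in ECtrl, 24.2, 27.3 and 27.6 FPKM in EfCtrl, and 32.2, 31.5 and 34.8 FPKM in E3KO, with a log2 difference of 0.30 (SE 0.11, limma adjusted p = 0.15). This difference did not rest on the library labelled E3KO replicate 1, since it was 0.31 without it. Its paralog Ero1lb was far less abundant, at 2.86, 3.02 and 4.18 FPKM in ECtrl, 3.0, 3.04 and 3.1 FPKM in EfCtrl, and 1.12, 3.18 and 2.93 FPKM in E3KO. Its log2 difference, the most negative of the chaperone group at -0.36 (SE 0.22, limma adjusted p = 0.347), became -0.04 without the library labelled E3KO replicate 1.

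That library was the lowest of all 9 in 7 of the 16 chaperone and folding genes, Pdia4, Dnajb11, Dnajc3, Manf, Sdf2l1, Hyou1 and Ero1lb, and the highest in Hspa5, Pdia6 and Creld2. Hyou1, the ER member of the HSP110 family and a partner of BiP, was at 22.2 FPKM there and at 30.8 and 36.8 FPKM in the other E3KO libraries, with the controls between 25.2 and 28.6 FPKM. Sdf2l1, a partner of the ER J proteins, was at 6.97 FPKM there and at 16.6 and 17.9 FPKM in the others, with the controls between 10.6 and 19.4 FPKM. Creld2 was at 28.9 FPKM there and at 19.0 and 18.01 FPKM in the others, which were inside the control range of 15.3 to 20.0 FPKM. The J proteins Dnajb9 and Dnajc3, cofactors of BiP, averaged 26.2 ± 1.76 and 25.8 ± 3.37 FPKM in E3KO and 24.0 ± 2.46 and 28.5 ± 0.504 FPKM in the controls, and Manf, a secreted partner of BiP, averaged 122 ± 11.7 FPKM beside 126 ± 10.4 FPKM. The log2 difference of Manf, -0.05, turned to 0.03 without the library labelled E3KO replicate 1 and to 0.05 with rescaled values.

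The mean deviation of the 16 chaperone and folding genes from their own 9-library means was -0.13 on the log2 scale in the library labelled E3KO replicate 1 and 0.12 and 0.16 in the other E3KO libraries, beside -0.06 to 0.05 in the 6 controls. Over all genes tested it was -0.12 in that library and -0.02 and -0.03 in the other E3KO libraries. With rescaled values the E3KO libraries were at 0.01, 0.13 and 0.20 for this group and the controls between -0.12 and -0.01. The position of the library labelled E3KO replicate 1, below the controls as deposited and just above them when rescaled, thus depended on the scaling. It remained the lowest in 5 genes after rescaling, Pdia4, Dnajc3, Sdf2l1, Hyou1 and Ero1lb, and no longer in Dnajb11 and Manf. The 8 chaperone and folding genes that hold an ERSE had a median log2 difference of 0.18, between -0.36 and 0.30, and the 6 whose promoter window holds none had a median of 0.09, between -0.20 and 0.30, so the ranges overlapped.

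**Figure D3:**
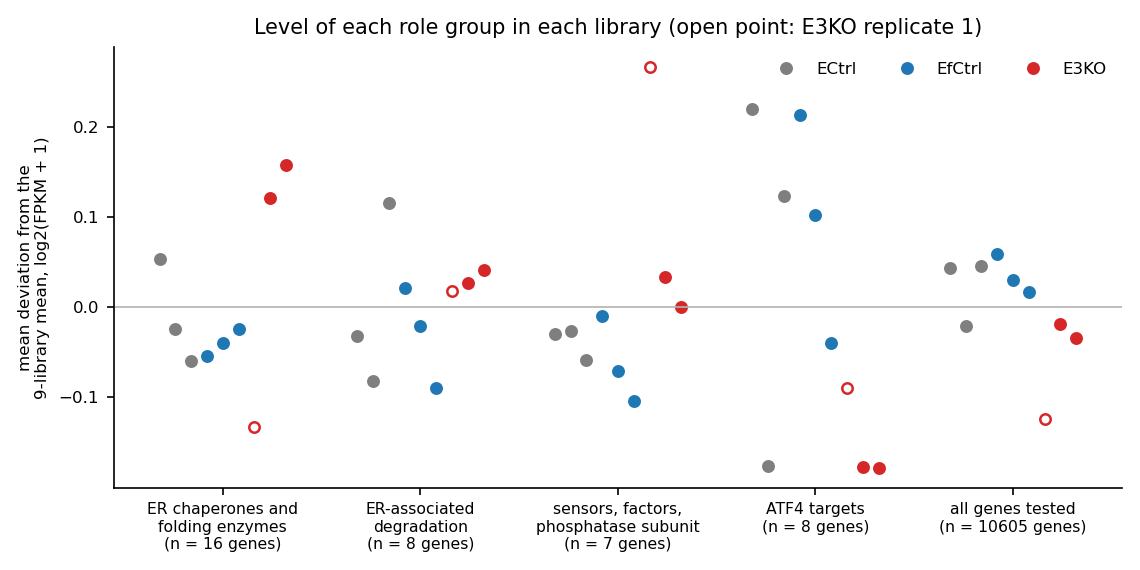
Mean deviation of each role group from its genes' means over 9 libraries (vertical axis, log2(FPKM + 1)), with 1 point per library in the colour of its group and the library labelled E3KO replicate 1 as an open point. For the chaperones that library is the lowest of all at -0.13 while the other E3KO libraries are the highest at 0.12 and 0.16, and for the sensors and factors it is the highest at 0.27. With rescaled values it is at 0.01 for the chaperones, just above the controls.

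ER-associated degradation draws misfolded proteins back to the cytosol, where a ubiquitin ligase built around Syvn1 (HRD1) and its adaptor Sel1l marks them for the proteasome. Derl2 (chr11:71007164-71027371), a channel protein of this complex, had the highest mean over the 9 libraries of the 8 genes. In the controls alone, however, Derl1 averaged more (47.0 beside 43.8 FPKM). Derl2 was at 47.2, 48.3 and 43.2 FPKM in ECtrl, 40.2, 44.0 and 40.3 FPKM in EfCtrl, and 76.1, 49.3 and 54.2 FPKM in E3KO. The library labelled E3KO replicate 1 stood far above the others. The log2 difference of 0.42 (SE 0.14, limma adjusted p = 0.125) was the most positive of the 37 genes and became 0.24 without that library. The Derl2 locus also spans the gene Mis12, whose reads may be counted with it.

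Sel1l was at 32.6, 39.1 and 40.1 FPKM in ECtrl, 35.9, 39.05 and 37.7 FPKM in EfCtrl, and 47.6, 43.1 and 41.0 FPKM in E3KO. Its log2 difference of 0.23 (SE 0.10, limma adjusted p = 0.221) was accompanied by one of -0.09 for its ligase Syvn1 (limma adjusted p = 0.719), which turned to 0.04 without the library labelled E3KO replicate 1 and to 0.01 with rescaled values, with 13.3 ± 2.21 FPKM in E3KO and 14.1 ± 1.8 FPKM in the controls. Of the mannosidase-like proteins that mark glycoproteins for disposal, Edem1 averaged 22.8 ± 1.68 FPKM in E3KO and 19.7 ± 1.87 FPKM in the controls, and Edem2 averaged 26.9 ± 5.72 and 32.3 ± 3.03 FPKM. Derl1 and Herpud1, which helps gather the complex, averaged 42.9 ± 8.9 and 16.3 ± 2.83 FPKM in E3KO and 47.0 ± 2.19 and 17.96 ± 3.77 FPKM in the controls. Without the library labelled E3KO replicate 1, the log2 difference of Derl1 turned from -0.15 to 0.03. That of Edem2 went from -0.27 to -0.10, and that of Herpud1 from -0.12 to -0.24. Of the 7 genes tested, 3 had a positive and 4 a negative difference, but 5 and 2 without the library labelled E3KO replicate 1, and 4 and 3 with rescaled values. None was called at an adjusted p under 0.05 (limma), beside 4.8% of all genes, and 1, Derl2, passed at an unadjusted p under 0.05 (14.3%), beside 23.8% of all genes.

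Among the sensors and factors, Xbp1 (chr11:5520659-5525893), the factor activated by IRE1, had the smallest p of the 7. It was at 73.3, 67.4 and 63.7 FPKM in ECtrl, 66.3, 63.2 and 63.5 FPKM in EfCtrl, and 99.1, 79.5 and 79.2 FPKM in E3KO, so that every E3KO library lay above every control. Its log2 difference was 0.36 from the mean of the controls (SE 0.10, limma adjusted p = 0.0858), 0.33 from ECtrl (limma adjusted p = 0.19) and 0.40 from EfCtrl (limma adjusted p = 0.147), and 0.26 from the mean of the controls without the library labelled E3KO replicate 1. FPKM does not separate the spliced from the unspliced Xbp1 mRNA.

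Eif2ak3, which encodes PERK, was at 12.0, 14.5 and 14.8 FPKM in ECtrl, 12.7, 13.1 and 11.7 FPKM in EfCtrl, and 22.4, 15.8 and 14.8 FPKM in E3KO. The groups were separated by less than 0.1 FPKM at their edges, and the log2 difference of 0.38 (SE 0.14, limma adjusted p = 0.155) became 0.21 without the library labelled E3KO replicate 1. The other sensors differed less, with log2 differences of 0.17 for Atf6, -0.06 for its relative Atf6b and -0.04 for Ern1, which encodes IRE1. Without the library labelled E3KO replicate 1 they were 0.09, -0.14 and 0.03, and with rescaled values 0.26, 0.03 and 0.05, so that the signs of Atf6b and Ern1 were not stable.

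Atf4, the factor on which the eIF2 kinases converge, was the most abundant of the 7, at 86.2, 72.8 and 86.3 FPKM in ECtrl, 78.7, 73.1 and 75.5 FPKM in EfCtrl, and 108, 86.6 and 80.5 FPKM in E3KO. E3KO replicate 3 lay among the controls and E3KO replicate 2 at their upper edge. The log2 difference was 0.21 (SE 0.12, limma adjusted p = 0.313) and 0.09 without the library labelled E3KO replicate 1. Ppp1r15b, the constitutive subunit of the phosphatase that resets eIF2, averaged 22.6 ± 2.36 FPKM in E3KO and 22.4 ± 2.68 FPKM in the controls.

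Of the 7 ATF4 targets tested, 2 had a positive and 5 a negative log2 difference from the mean of the controls, but 4 and 3 with rescaled values. Against ECtrl alone 4 were higher and 3 lower, and against EfCtrl alone 2 and 5, so the signs depended on the control group. None was called at an adjusted p under 0.05 (limma), beside 4.8% of all genes, and 2, Trib3 and Phgdh, passed at an unadjusted p under 0.05 (28.6%), beside 23.8% of all genes. The mean deviation of the 8 targets from their 9-library means was -0.09, -0.18 and -0.18 on the log2 scale in E3KO, 0.22, -0.18 and 0.12 in ECtrl, and 0.21, 0.10 and -0.04 in EfCtrl. The E3KO libraries thus lay below every control except ECtrl replicate 2. With rescaled values, over the 7 tested only, they were at 0.06, -0.16 and -0.15, with the controls between -0.14 and 0.14. Trib3 (chr2:152337422-152344032), a pseudokinase that dampens ATF4 and AKT, was at 43.5, 27.6 and 36.95 FPKM in ECtrl, 38.3, 31.2 and 33.6 FPKM in EfCtrl, and 12.2, 25.6 and 24.2 FPKM in E3KO, all E3KO libraries below all controls. The log2 difference of Trib3 was -0.80 (SE 0.24, limma adjusted p = 0.102), or 0.576 of the controls on the scale of FPKM + 1, and -0.47 without the library labelled E3KO replicate 1, which was the lowest. Phgdh (chr3:98313170-98339990), the first enzyme of serine synthesis, was at 4.81, 2.82 and 4.89 FPKM in ECtrl, 4.7, 4.13 and 2.97 FPKM in EfCtrl, and 2.11, 2.02 and 2.0 FPKM in E3KO. The E3KO libraries were nearly equal, while the controls ranged from 2.82 to 4.89 FPKM. The log2 difference of Phgdh was -0.71 (SE 0.17), with the smallest adjusted p of all 37 genes (limma adjusted p = 0.0557), and -0.73 without the library labelled E3KO replicate 1 (limma adjusted p = 0.092). Without ECtrl replicate 2, which was the lowest control, it was -0.81 (limma adjusted p = 0.0268) and Phgdh was called, so this call rests on which control libraries are used.

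Psat1, the next enzyme of the same serine pathway, behaved otherwise. It had the highest mean over the 9 libraries of the 8 targets, although Trib3 averaged more in the controls alone (35.2 beside 34.4 FPKM). Psat1 was at 33.7, 35.1 and 33.0 FPKM in ECtrl, 34.7, 35.2 and 34.6 FPKM in EfCtrl, and 35.8, 34.0 and 32.3 FPKM in E3KO. For Psat1 the log2 difference was -0.01 (SE 0.08, limma adjusted p = 0.923) with a 95% interval from -0.20 to 0.17, and the E3KO libraries held both the highest and the lowest value. Asns, the asparagine synthetase, was at 28.1, 20.4 and 20.6 FPKM in ECtrl, 20.9, 23.4 and 19.3 FPKM in EfCtrl, and 22.5, 15.8 and 13.4 FPKM in E3KO. Here the library labelled E3KO replicate 1 lay among the controls and the others below them, and the log2 difference went from -0.36 (limma adjusted p = 0.252) to -0.56 without it (limma adjusted p = 0.082), and to -0.21 without E3KO replicate 3 (limma adjusted p = 0.508).

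Ddit3 (chr10:127289696-127311786), which encodes the pro-apoptotic factor CHOP and is widely read as a mark of unresolved ER stress, was at 5.87, 5.26 and 5.55 FPKM in ECtrl, 6.81, 6.86 and 6.08 FPKM in EfCtrl, and 13.3, 6.31 and 5.13 FPKM in E3KO. Only the library labelled E3KO replicate 1 stood out, while E3KO replicate 2 lay among the controls and E3KO replicate 3 just below the lowest of them. The log2 difference of 0.29 (SE 0.24, limma adjusted p = 0.481) became -0.07 without that library. The locus of Ddit3 also spans the gene Mars, whose reads may be counted with it. Ppp1r15a, the stress-induced phosphatase subunit GADD34, averaged 7.75 ± 0.821 FPKM in E3KO and 7.47 ± 1.1 FPKM in the controls, but its locus spans Dhdh, Tulp2 and Nucb1 as well. Sesn2, a sestrin that restrains growth signalling, averaged 20.2 ± 1.45 and 20.5 ± 2.66 FPKM.

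**Figure D4:**
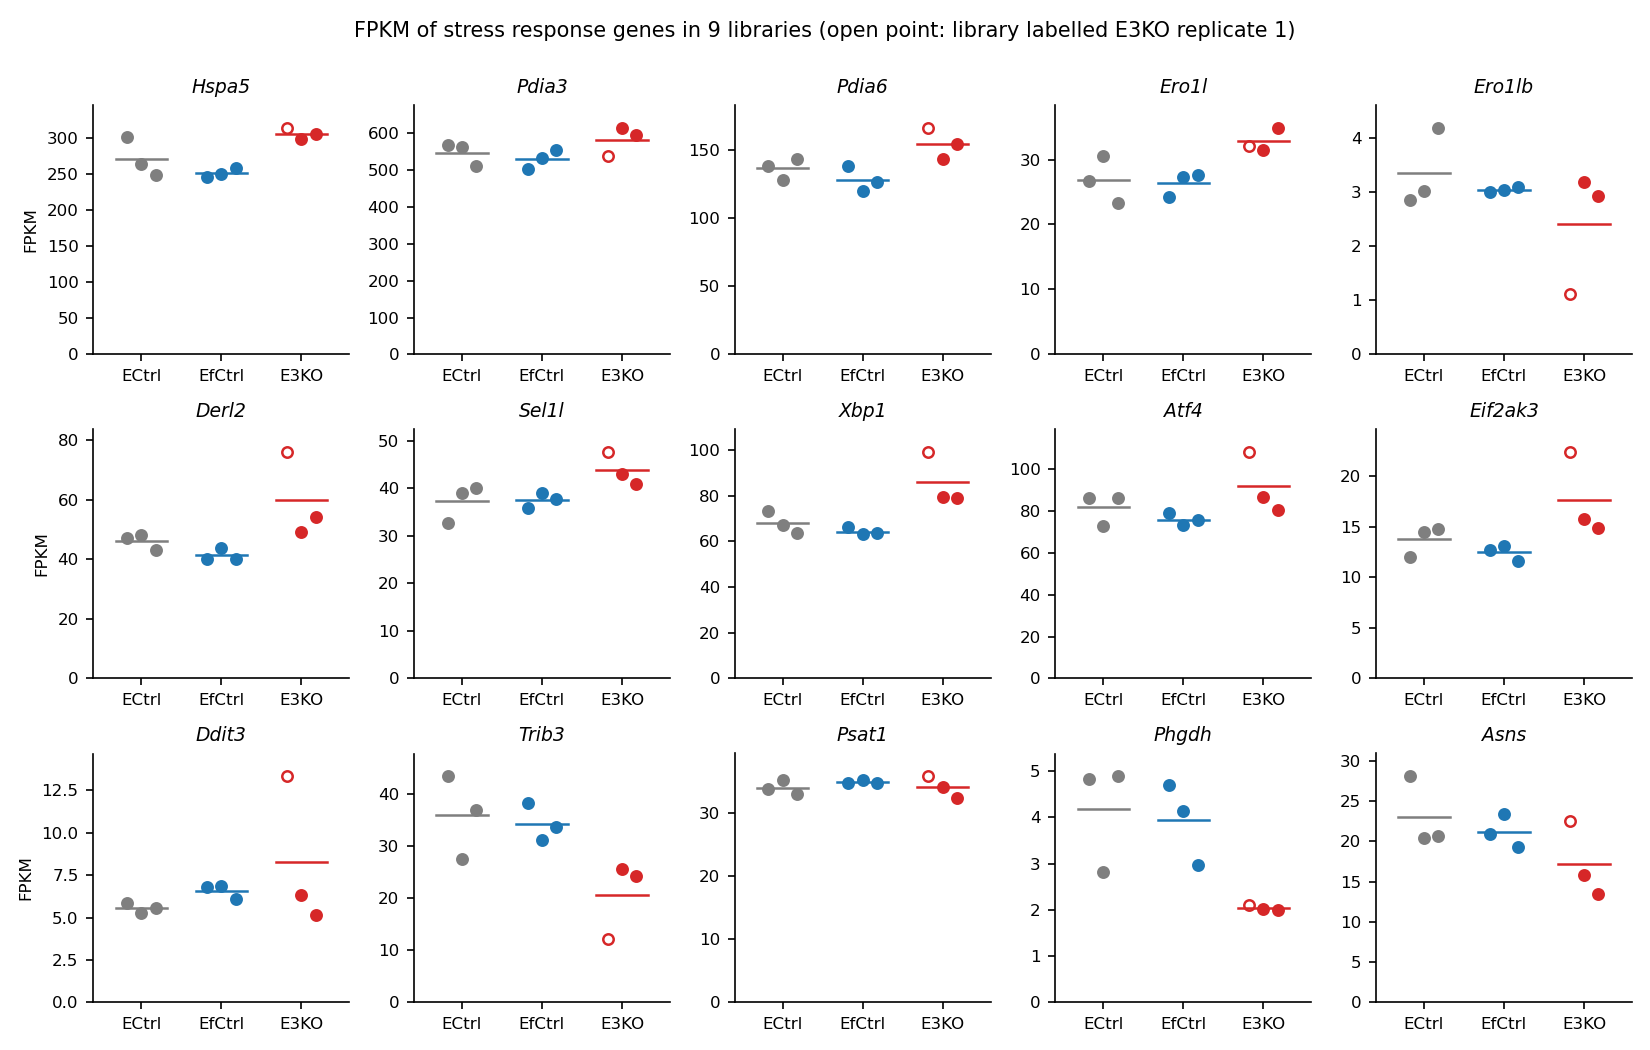
FPKM (vertical axes, from 0) of 15 of the genes in the 3 libraries of each group, with the group mean as a line and the library labelled E3KO replicate 1 as an open point. That library is apart from the other E3KO libraries for Derl2 (76.1 FPKM), Ddit3 (13.3 FPKM), Trib3 (12.2 FPKM) and Ero1lb (1.12 FPKM), while Phgdh is near 2 FPKM in all E3KO libraries.

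For single genes, an exact two-sided permutation test of the 3 E3KO and 6 control libraries has 84 splits and a smallest p of 0.0119. Derl2, Xbp1, Eif2ak3, Trib3 and Phgdh reached it, which is 5 of 37 genes (13.5%) beside 13.7% of all genes tested, without adjustment. A comparison of 3 with 3 libraries cannot go below 0.1, so no such test was made within 1 control group.

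Genes of the same pathways outside the 39 were taken from lists by role. Of 21 further ER folding and degradation genes tested, 1 rose and 0 fell against the mean of the controls, beside 1.54% and 3.26% of all genes, with a median log2 difference of 0.02. It was Fkbp11, a prolyl isomerase of the secretory pathway, at 1.21, 1.16 and 1.41 FPKM in ECtrl, 1.83, 2.08 and 3.39 FPKM in EfCtrl, and 4.24, 3.56 and 5.67 FPKM in E3KO. Fkbp11 had a log2 difference of 0.98 (SE 0.17, limma adjusted p = 0.0224), 1.26 from ECtrl (limma adjusted p = 0.028) and 0.69 from EfCtrl (limma adjusted p = 0.136). EfCtrl replicate 3 lay closer to E3KO than to ECtrl, and the call was lost without EfCtrl replicate 1, EfCtrl replicate 2 or E3KO replicate 3 (limma adjusted p = 0.0578, 0.0524 and 0.0911). The most abundant gene of this list, the disulfide isomerase P4hb, lay between 342 and 438 FPKM in E3KO and between 349 and 377 FPKM in the controls.

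Of 20 further ATF4-linked genes tested, 1 was called higher and 1 lower, beside 1.54% and 3.26% of all genes, with a median log2 difference of -0.01, and both encode amino acid carriers. Slc7a11, the cystine carrier of glutathione synthesis, was at 0.765, 1.77 and 1.59 FPKM in ECtrl, 1.27, 2.27 and 1.33 FPKM in EfCtrl, and 3.59, 4.69 and 6.34 FPKM in E3KO. It passed the expression minimum only through E3KO, where it was high, so its log2 difference of 1.23 is given as a description, and with no minimum it was not called (limma adjusted p = 0.128). Slc7a1, the carrier of arginine and lysine, was at 9.87, 9.78 and 10.0 FPKM in ECtrl, 10.6, 9.52 and 10.8 FPKM in EfCtrl, and 5.57, 6.57 and 5.14 FPKM in E3KO. It fell by 0.72 on the log2 scale (SE 0.10, limma adjusted p = 0.012), with 0.69 and 0.75 against ECtrl and EfCtrl as the separate falls. The call of Slc7a1 held without the library labelled E3KO replicate 1 (limma adjusted p = 0.0261) and was lost without E3KO replicate 3 (limma adjusted p = 0.0746). Slc38a2, a carrier of neutral amino acids and the most abundant of the list, lay between 220.4 and 304 FPKM in E3KO and between 216 and 253 FPKM in the controls.

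Of the branch from IRE1 to JNK, 3 genes were tested and 1, Jun, fell, beside 3.26% of all genes. Jun, the factor that JNK phosphorylates, was at 14.7, 11.4 and 13.2 FPKM in ECtrl, 13.5, 11.3 and 13.0 FPKM in EfCtrl, and 7.14, 9.24 and 8.15 FPKM in E3KO, a log2 difference of -0.60 (SE 0.12, limma adjusted p = 0.0329) whose call was lost when any library except ECtrl replicate 2 or E3KO replicate 2 was left out (limma adjusted p = 0.0535 to 0.109). Traf2 had a log2 difference of -0.40 (limma adjusted p = 0.151), and Map2k4, the most abundant of the 3, one of 0.19 (limma adjusted p = 0.292).

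No gene was called in the remaining lists, which had 20 genes of ER translocation, signal peptidase and glycosylation (median log2 difference -0.01), 12 cytosolic aminoacyl-tRNA synthetases (0.03), 11 eIF2 kinases and subunits of eIF2 and eIF2B (-0.02) and 9 cytosolic heat shock chaperones (-0.01). At an unadjusted p under 0.05 (limma), 1 of 20, 1 of 12, 2 of 11 and 1 of 9 passed, beside 23.8% of all genes. Their most abundant genes were Ssr3, Gars, Eif2b2 and Hsp90ab1, with log2 differences of 0.05, -0.13, -0.49 and -0.01.

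The expression patterns most like that of Hspa5 over the 9 libraries were those of Pak1ip1, Rnf149 and Rer1, with Pearson r of 0.96, 0.943 and 0.934 on log2(FPKM + 1). Without the library labelled E3KO replicate 1 they were those of Gm14448, Pak1ip1 and Xbp1, with r of 0.968, 0.962 and 0.933, where Gm14448 was at 0 in 5 of the 6 controls. Rer1, a protein that returns ER proteins from the Golgi, lay between 81.5 and 95.8 FPKM in the controls and between 105 and 107 FPKM in E3KO. Of the other 36 genes tested, Xbp1 was closest to Hspa5 with r of 0.884, followed by Derl2 with 0.787, and the lowest were Phgdh with -0.65 and Edem2 with -0.627. The patterns most like that of Ddit3 were those of Gm9000, Rps13-ps2 and Xpo6, with r of 0.984, 0.981 and 0.98. All 3 had their highest value in the library labelled E3KO replicate 1, and Gm9000 and Rps13-ps2 passed the expression minimum through E3KO alone. Over the 8 libraries without it, the nearest to Ddit3 were Lemd2, Zfp46 and Imp4. These are descriptions over libraries that fall into 3 groups, and carry no test.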

How the data were processed

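RNA-seq of 9 MLEC libraries was used, 3 per group. Per the study's methods and the submitters' processing notes, the authors aligned paired reads to mm10 with TopHat, merged transcripts and estimated expression with Cufflinks (1.0.3), and deposited FPKM for each library. Columns of the authors' own comparisons (Cuffdiff fold changes and p-values) were not used. Whether counting used strand is not given in the sources used here.

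The FPKM of each library were read from both deposited tables. Of 37104 loci, 2 without numeric FPKM and 3749 sharing a symbol were left out of the tests. Genes with a group mean of at least 2 FPKM were fitted as log2(FPKM + 1) with limma (3.58.1, R 4.3.3), 3 groups in 1 fit, with Benjamini-Hochberg adjustment and calls at an adjusted p under 0.05. Fold changes on this scale understate those of low genes. Exact permutation tests and motif searches used Python 3.11.15. The fit was also run on simulated normal values. Their changes were larger than any found in the stress response genes tested, and no library was made to stand apart. That run therefore says nothing on differences as small as those of the stress response genes.

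Each library of a group is a separate isolation. The 39 genes and all lists were chosen with earlier results of these data known. Given in every library were Hspa5, Xbp1, Atf4, Ddit3, genes whose E3KO libraries did not overlap the controls, and genes called in the further lists. So were, for each role, the gene with the highest mean over 9 libraries and that with the largest absolute log2 difference. The 3 nearest in pattern to Hspa5 and Ddit3 were also named. Asns, Hyou1, Sdf2l1, Creld2 and Traf2 were singled out after their values were seen. Alternatives were another pseudocount, other minimums, rescaling by the median ratio, a mean-variance trend, a replicate block, only the groups compared, and each library left out. Counts of genes whose groups do not overlap, without E3KO replicate 1 and with rescaled values, sign counts and medians of each role under the same changes, and levels of each role with rescaled values were added after seeing the data.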

Additional observations from a re-analysis of the deposited data

How the results depend on the processing

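The number of genes called over all 10605 (limma) depended on the settings. Against the mean of the controls it was 509, but 15 with no expression minimum, 202 with a replicate block, and 9 to 408 when each library was left out, lowest without E3KO replicate 3. Against ECtrl it was 239, but 7 with no minimum, 1 with a replicate block, 0 with only the 2 groups compared, and 0 to 215 with a library left out. Against EfCtrl it was 101, but 12 with no minimum, 1 with a replicate block, 27 with only the 2 groups compared, and 1 to 218 with a library left out. Between the controls it was 0, with 2 for no minimum and 0 to 4 with a library left out. The correlations of same-numbered deviations ran from -0.04 to 0.123, beside -0.215 to 0.079 for libraries with unlike numbers. The highest, 0.123 and 0.119, were same-numbered pairs of ECtrl and EfCtrl libraries. Whether replicate numbers pair the libraries cannot be told from these values, since each deviation comes from a group of 3.

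None of the 37 stress response genes was called under any of the settings that kept all libraries. With a library left out, 0 to 1 were called against the mean of the controls and against ECtrl, the 1 being Phgdh without ECtrl replicate 2, and 0 against EfCtrl. The chaperone median was 0.2116 after rescaling. The count of genes with E3KO above all controls, 6, became 12 without E3KO replicate 1 and 11 after rescaling. Ddit3 ran from -0.0739 (without E3KO replicate 1) to 0.5388 (without E3KO replicate 3). Psat1 turned to 0.0828 after rescaling and ran from -0.05 to 0.0205 with a library left out. With no expression minimum, Slc7a1, Slc7a11, Fkbp11 and Jun were not called (limma adjusted p = 0.0576, 0.128, 0.122 and 0.12). Mapk9 and Jun were also not called with the replicate block (limma adjusted p = 0.0756 and 0.081). The causes of these shifts were not tested. Groups of 3 libraries limit the precision, and the files hold no read counts per library or gene.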

Other observations

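Outside the stress response genes, 27 genes of the annotation held an exact ERSE in the searched window. Of these, 5 were tested, namely Alg12, Hnrnpa3, Pan2, Spats2l and Zfp57, of which 1 had a positive log2 difference and 0 were called (limma), with a median of -0.28.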
